A study of Mus musculus with 2 samples.

Results

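Expression of 10 imprinted genes that drive or restrain growth before adulthood (Igf2, H19, Meg3, Dlk1, Peg3, Plagl1, Cdkn1c, Mest, Grb10 and Ndn) was examined in epithelial cells of the mouse submandibular gland. The genes were taken by name, with all of their 26 non-control probes, out of 37003 gene names on the array. Cells bearing EpCAM, an epithelial surface protein, were collected with magnetic beads from C57BL/6 females (C57BL/6N in the methods), either young (9 weeks) or aged (24 months). Each age had 1 sample and 1 one-colour Agilent array, both arrays on 1 slide, and no genetic change or treatment. According to the methods, the young mice came from a commercial breeder and the aged mice from the facility of the institute, so age and origin cannot be told apart. A single array per age leaves every difference without a check by replicates, and the ages could not be tested against each other. The ± given after a signal is the error assigned to that spot by the scanner software and does not cover the spread between mice.

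In an imprinted gene, only the copy inherited from 1 parent is transcribed, and marks of DNA methylation laid down in the germ line decide which copy that is. Many of these genes control body size. They are highly expressed in fetal and newborn organs, and their transcripts decline in many tissues as growth slows after birth. Igf2, Dlk1, Peg3, Plagl1, Mest and Ndn are expressed from the paternal copy, whereas H19, Meg3, Cdkn1c and, in most tissues outside the brain, Grb10 are expressed from the maternal copy. The array measures the sum of both copies, and in bulk RNA fewer cells that express a gene and less RNA per cell cannot be told apart.

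H19 and Meg3 are long noncoding RNAs, and their probes are shown because H19 passed 2-fold by its limit and Meg3 was read by the most probes. The files place both H19 probes on the minus strand in NCBI37 (mm9), the first at chr7:149761492-149761551 and the second at chr7:149762173-149762232, 681 bases upstream. Of the 5 Meg3 probes, 4 are shown. They lie on the plus strand and are given in the order of the transcript, at chr12:110783470-110783529, chr12:110799833-110799892, chr12:110806386-110806445 and chr12:110809678-110809737. Each probe is 60 bases long and hybridizes over its whole length, so that no part is set in capitals.
H19 A_55_P2903297: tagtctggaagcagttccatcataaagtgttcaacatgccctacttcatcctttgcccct
H19 A_30_P01026972: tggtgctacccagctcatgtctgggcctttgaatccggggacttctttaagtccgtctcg
Meg3 A_55_P2736854: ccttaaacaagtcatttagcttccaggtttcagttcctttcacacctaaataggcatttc
Meg3 A_55_P2736010: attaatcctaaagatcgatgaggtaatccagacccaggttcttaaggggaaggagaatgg
Meg3 A_65_P01584: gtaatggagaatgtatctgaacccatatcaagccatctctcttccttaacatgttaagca
Meg3 A_51_P455997: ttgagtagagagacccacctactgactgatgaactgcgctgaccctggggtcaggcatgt

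Detection, meaning a spot that the software marked as well above background, was the first difference among these genes. Of the 10 genes, 6 (Meg3, Dlk1, Plagl1, Cdkn1c, Grb10 and Ndn) had a probe well above background on both arrays, 1 (H19) on the young array only and 3 (Igf2, Peg3 and Mest) on neither. Over all gene names on the array, 57.7% had a probe that passed this mark on 1 array or both, against 7 of these 10. All 4 maternally expressed genes were among the 7, as were 3 of the 6 paternally expressed genes. On both arrays, 3 of the 4 and 3 of the 6 were measured. Groups of 4 and 6 genes are too small to read a pattern by parental copy from these counts. Counted by probe, 8 of the 26 were well above background on both arrays, 3 on the young array only, 0 on the aged array only and 15 on neither. Of all 56605 probes, 26745 passed the mark at both ages, a larger share than these 8 of 26. At 9 weeks 53.4% of all probes passed it, and at 24 months 48.5% did. By probe, the 10 genes were thus detected less often than the array as a whole. Signals are given below as processed by the scanner software. Log2 values are relative to the 75th percentile of the array, which was 256 in young and 198 in aged cells, and every difference is aged minus young. The dimmest signal that still counted as well above background was 14.1 at 9 weeks and 14.3 at 24 months.

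**Figure D1:**
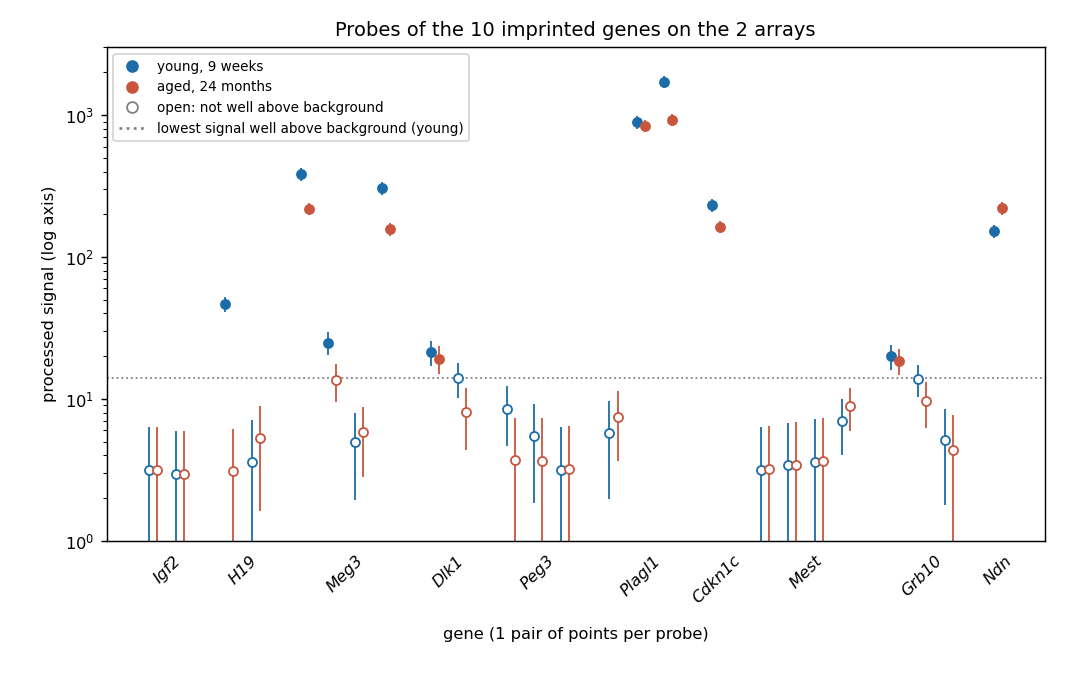
Processed signal (log axis) of 25 of the 26 probes on the young array (blue) and the aged array (red), with no scaling between arrays. Bars are the error of the scanner software, drawn down to 1 at the lowest, and open points were not well above background. The Plagl1, Meg3, Cdkn1c and Ndn probes with both points filled reach 152 or more, whereas all Igf2, Peg3 and Mest points are open.

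Igf2 encodes the insulin-like growth factor that promotes fetal growth, and no signal could be measured for it at either age. On the young array its probes gave 3.14 ± 3.15 and 2.94 ± 2.96, and on the aged array 3.16 ± 3.18 and 2.95 ± 2.97, all of them substitute values that the software writes when a signal is below its error. The raw signals, before any background was subtracted, were 35.0 and 38.5 in the young and 37.6 and 39.4 in the aged sample. They lay within the range of the 308 negative control spots, whose median was 33.1 in young and 33.5 in aged cells and whose 95th percentile was 40.0 and 39.9. No fold is therefore given for Igf2.

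The IGF2 receptors and their adaptors were nevertheless measured at both ages, all 5 of them. Igf1r, which transmits the growth signal, differed by 0.18 on the log2 scale, Insr by -0.29 and Igf2r, the imprinted receptor that clears IGF2, by 0.24. Irs2 differed by 0.01. Irs1, an adaptor protein downstream of these receptors, was the exception. Its signal was 152 ± 15.5 at 9 weeks and 35.4 ± 4.60 at 24 months, a log2 difference of -1.73, and -0.89 or lower under all 7 scalings of the arrays that were tried.

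**Figure D2:**
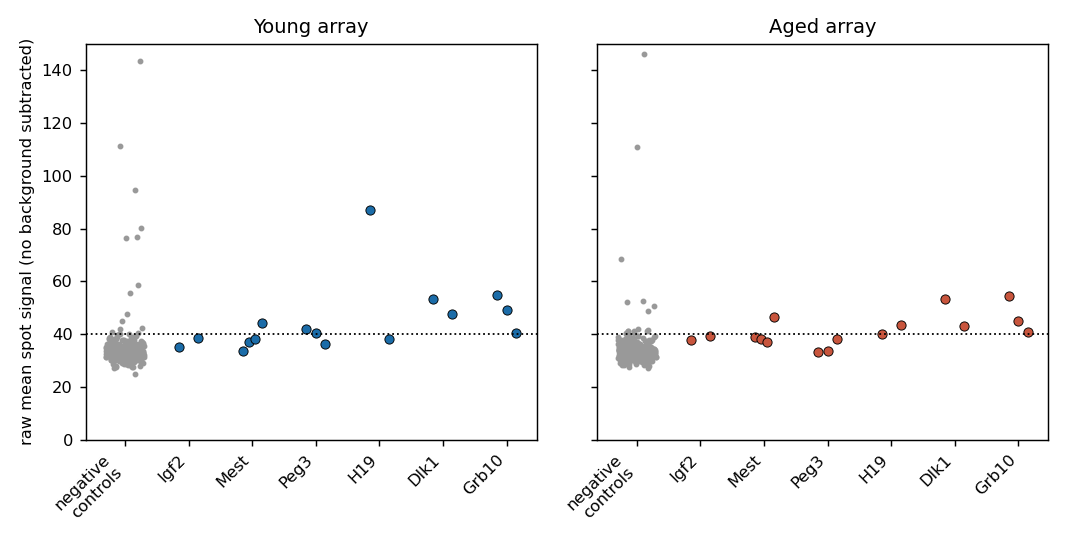
Raw mean spot signal, without background subtraction, of the 308 negative control spots (grey) and of the probes of 6 genes on the young (left) and aged (right) array. The dotted line is the 95th percentile of the negative controls, 40.0 (young) and 39.9 (aged). The 2 Igf2 probes lie under it on both arrays, and 1 H19 probe stands at 86.9 (young) and 39.9 (aged).

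H19 shares a domain with Igf2 and is transcribed from the opposite parental copy. Its first probe gave 46.4 ± 5.55 in young and 3.1 ± 3.1 in aged cells, where it was not well above background. The raw signal of the same spot was 86.9 at 9 weeks and 39.9 at 24 months, where the 95th percentiles of the negative controls were 40.0 and 39.9. At 9 weeks it was above 99.0% of the negative control spots, the brightest of which reached 144. H19 was thus detected on the young array only. Set against the dimmest signal marked well above background there, 14.3, it was at least 2.51-fold lower in aged cells, a limit of -1.33 on the log2 scale. Under the 7 scalings the limit lay between -1.59 and -0.36, and it reached 2-fold under all of them except the normexp background correction, with at least 1.28-fold. H19 was the 1 gene of the 10 past 2-fold by a measured value or a limit. Of the 2116 genes measured on the young array only, 24.9% were at least 2-fold lower by their limit. The second H19 probe is named H19 and described as a long intergenic RNA, with an interval that also spans the first probe. It was below the detection mark at both ages, with 3.57 ± 3.58 in young and 5.28 ± 3.65 in aged cells. The H19 result therefore rests on 1 spot per array.

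Meg3 and Dlk1 lie in another imprinted domain, on chromosome 12. Meg3 is its maternally expressed noncoding RNA, and Dlk1 encodes a membrane protein of the Notch ligand family that holds back differentiation of precursor cells. The brightest Meg3 probe, the first in the order shown, gave 383 ± 38.4 at 9 weeks and 219 ± 22.1 at 24 months, a log2 difference of -0.43 ± 0.21 (software error) or 1.35-fold lower. The last shown probe, 26208 bases from the first and annotated to another transcript record, gave 305 ± 30.7 and 157 ± 16.1, a difference of -0.59 ± 0.21. The gap of 0.15 between these probes was under its software error of 0.29. Both Meg3 probes were lower on the aged array under each of the 7 scalings, and neither reached 2-fold.

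The second Meg3 probe in the order shown was well above background on the young array only. It gave 24.9 ± 4.52 in young and 13.5 ± 3.96 in aged cells, at least 1.35-fold lower. With the normexp correction this dimmer probe differed by 0.15, so that it turned in sign. The third was undetected at both ages, with 4.94 ± 2.99 and 5.81 ± 3.01. Of the 18745 genes measured on both arrays, 2146 had a lower difference than Meg3.

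Dlk1 was near the limit of detection at both ages. Its brighter probe, at chr12:110698428-110698487, gave 21.4 ± 4.31 at 9 weeks and 19.2 ± 4.22 at 24 months. The log2 difference of 0.22 ± 0.43 was under its software error and turned to -0.04 when spike-in controls were used to level the arrays. The other Dlk1 probe was dim at both ages, with no mark above background, at 14.0 ± 3.89 and 8.13 ± 3.77.

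Further noncoding RNAs of the Meg3 domain were measured by 1 probe each. Rian gave 44.9 ± 5.70 in young and 36.6 ± 5.08 in aged cells, a difference of 0.08 that lay between -0.18 and 0.25 over the scalings. Mirg, a host transcript of microRNAs, gave 20.4 ± 4.08 at 9 weeks and 55.9 ± 6.65 at 24 months, 3.54-fold higher with a log2 difference of 1.82, or 0.76 with the normexp correction. The second probe of each of these RNAs was undetected at both ages.

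Plagl1 encodes a zinc finger transcription factor that activates other imprinted growth genes. The probe at chr10:12850832-12850891 gave 1709 ± 171 in young and 926 ± 92.7 in aged cells, a log2 difference of -0.51 ± 0.20 or 1.43-fold lower. The probe at chr10:12848421-12848480 gave 889 ± 89.0 and 840 ± 84.0, a difference of 0.29 ± 0.20. The 2 probes match the same RefSeq transcript (NM_009538) and disagreed in sign. Their gap of 0.80 was larger than its software error of 0.29, and a gap of this size or larger was found in 10.1% of the 5653 genes with at least 2 probes measured on both arrays. No direction is therefore given for Plagl1. The remaining Plagl1 probe, matched to another transcript, was not detected at either age.

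Cdkn1c, which encodes the cyclin-dependent kinase inhibitor p57, has a single probe at chr7:150644297-150644356. The probe gave 232 ± 23.4 at 9 weeks and 163 ± 16.6 at 24 months. Relative to the 75th percentile the difference was -0.13 ± 0.21, under its software error, and it lay between -0.39 and 0.04 over the scalings, so that its sign changed when the arrays were centred on the median. Grb10, an adaptor protein that restrains insulin and IGF receptor signalling, was dim. Its brightest probe, at chr11:11833165-11833224, gave 20.1 ± 3.96 in young and 18.6 ± 3.92 in aged cells, a difference of 0.26 ± 0.42 that lay between 0.00 and 0.44 over the scalings, and the other 2 probes were undetected at both ages. Relative to the 75th percentile, both Cdkn1c and Grb10 differed by less than the error of their spots, whereas Cdkn1c with the spike-in controls (-0.39) and Grb10 centred on the median (0.43) or with quantile normalization (0.44) differed by more.

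Ndn was the only gene of the group measured on both arrays whose signal was higher on the aged array before any scaling. It encodes necdin, a protein of the MAGE family that restrains cell proliferation and is best known from neurons. Its single probe, at chr7:69494749-69494808, gave 153 ± 15.5 at 9 weeks and 220 ± 22.2 at 24 months. The log2 difference was 0.90 ± 0.21, or 1.87-fold, and 370 of the 18745 genes measured on both arrays had a higher difference. Over the scalings it lay between 0.65 and 1.08, and it passed 2-fold only when the arrays were centred on the median.

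Peg3, a zinc finger protein, and Mest, a member of the alpha/beta hydrolase fold family, are both paternally expressed, and neither was detected. The 3 Peg3 probes gave between 3.18 and 8.47 at 9 weeks and between 3.20 and 3.69 at 24 months, and the 4 Mest probes between 3.18 and 6.98 and between 3.21 and 8.96. The highest of these, a Mest probe at chr6:30697385-30697444, had raw signals of 44.4 in young and 46.6 in aged cells. Its raw signal was above those of 96.8% of the negative control spots at 9 weeks and 97.7% at 24 months, but it was not marked as well above background on either.

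No gene of the 10 that was measured on both arrays differed by 2-fold in either direction. Of all 18745 genes measured on both arrays, 3.05% were 2-fold or more lower in aged cells and 1.52% were 2-fold or more higher, against 0 and 0 of the 6. By probe, 2.8% of the 26745 probes measured on both arrays were at least 2-fold lower, against 0 of the 8. By the brightest probe of each gene, the 6 differences were negative for Meg3, Plagl1 and Cdkn1c and positive for Dlk1, Grb10 and Ndn, although the second Plagl1 probe was positive and Cdkn1c and Dlk1 each changed sign under 1 scaling. Their median of 0.04 compares with 0.09 over all genes measured on both arrays, of which the middle 80% lay between -0.48 and 0.58.

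**Figure D3:**
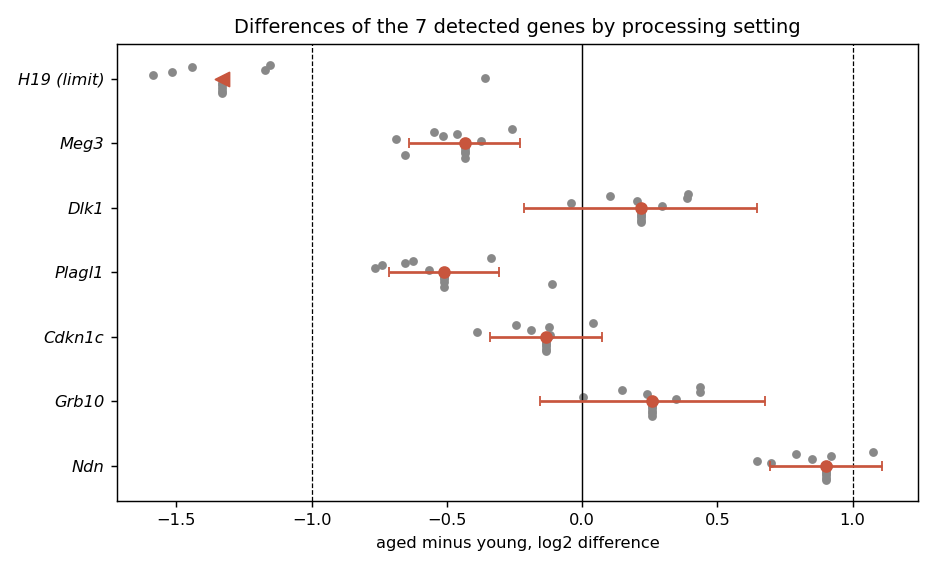
Log2 difference, aged minus young, of the 7 detected genes under the main setting (red, with the software error) and under the other settings tried (grey). For H19 the red triangle is the limit of the difference. Dashed lines mark 2-fold. H19 lies beyond the line at all settings but 1 (-0.36), and Ndn crosses it at 1 setting (1.08).

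**Figure D4:**
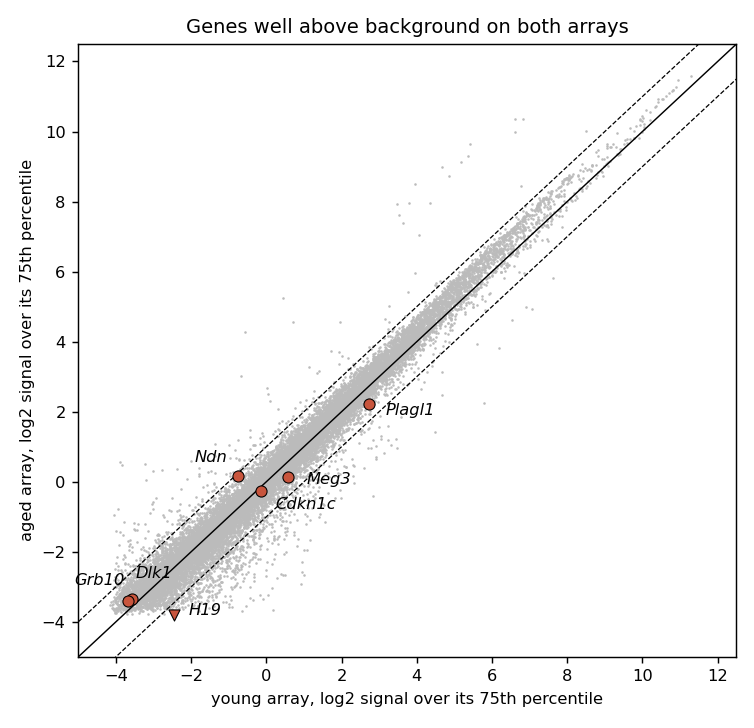
Log2 signal over the 75th percentile on the young (horizontal) and aged (vertical) array of the 18745 genes measured on both arrays (grey) and of the imprinted growth genes (red). The solid line marks equal values and the dashed lines 2-fold. The triangle is H19, drawn at its limit on the aged array, and the 6 circles lie between the dashed lines.

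Other imprinted genes and the genes that maintain imprints were read beside the group. Of 54 further genes listed as imprinted, 53 were found by name and 37 were detected on at least 1 of the arrays. Of the 32 measured on both, 0 were at least 2-fold lower and 1, Mirg, was at least 2-fold higher, with a median difference of 0.08. By their limits, Slc38a4, an amino acid transporter, was at least 11.3-fold lower (209 ± 21.1 at 9 weeks and 3.39 ± 3.40 at 24 months) and Atp10a, a phospholipid flippase, at least 2.32-fold higher. With the normexp correction these limits were 3.01-fold and 1.41-fold, and with the spike-in controls that of Atp10a was 1.94-fold. The second Slc38a4 probe and the other 2 Atp10a probes were undetected at both ages. Decorin (Dcn), a matrix protein of stroma, had the lowest difference among those measured on both, with -0.98. Of 8 measured genes of imprint maintenance, Uhrf1, which guides the maintenance methyltransferase to newly made DNA, differed by -1.25 (235 ± 23.7 to 76.5 ± 8.40) and the de novo methyltransferase Dnmt3a by -1.13 (336 ± 33.7 to 118 ± 12.2). These 2 were the genes of the list past 2-fold by their brightest probe. Over the scalings the number was between 0 (with the normexp correction) and 3. A dimmer Dnmt3a probe, also measured on both arrays, differed by -0.85 (45.2 ± 5.43 to 19.3 ± 3.59). Dnmt3b differed by -0.94, its cofactor Dnmt3l by 0.56 and Trim28, the corepressor that Zfp57 recruits, by 0.14. Dnmt1 itself differed by -0.27, Ctcf, which binds the control region of the Igf2 and H19 domain, by -0.12, and Zfp57, a zinc finger protein that protects imprints, by -0.06.

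Of 14 partners of fetal growth, 7 were measured on both arrays, 0 passed 2-fold, and their median difference was -0.01. Ezh2, a histone methyltransferase, had the lowest difference of these with -0.65. On the young array only, E2f3 (28.8 to 10.8) was at least 1.56-fold and Lin28b (18.6 to 4.45) at least 1.01-fold lower in aged cells, limits that for Lin28b were lost under 3 scalings. Igf2bp1, Igf2bp2, Hmga2, Mycn and Sox11 were undetected at both ages. Of 8 markers of proliferation, all 4 that were measured on the young array only were lower on the aged array by more than 2-fold, among them Mki67 with at least 24.8-fold (457 ± 45.9 to 13.2 ± 3.75), and Birc5 differed by -3.86, whereas Cdk1, Mcm2 and Pcna differed by -0.40, -0.27 and 0.05. With the normexp correction the limit of Mki67 was 5.56-fold, that of Ccnb1 1.72-fold, and Birc5 differed by -2.42.

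Of 8 markers of epithelium, 7 were measured at both ages, with a median difference of 0.07. Epcam differed by 0.20, Krt7 by 0.54 and Cldn4 by -0.55, and Krt19, detected on the young array only, was at least 1.86-fold lower in aged cells. Markers of other cells were present as well. The summed signal, in multiples of the 75th percentile, was 5.81 in young and 2.72 in aged cells for 7 fibroblast markers, of which 3 were at least 2-fold lower as measured and Pdgfra by its limit. Of the 6 fibroblast markers measured on both arrays, 4 were lower and 2 were higher, Thy1 (0.34) and Fbln1 (0.06). The sum was 46.4 and 26.1 for 6 macrophage markers, of which 5 were at least 2-fold lower, and 7.38 and 5.17 for 6 endothelial markers, of which 0 were. The 6 myoepithelial and basal markers summed to 67.4 and 75.4, with Cnn1 and Myh11 at least 2-fold lower. Over the scalings, between 3 and 6 macrophage markers and between 2 and 4 fibroblast markers were at least 2-fold lower as measured, and with the normexp correction Col1a1, Pdgfra and Myh11 were not. Sums were 1.40 and 1.69 for 4 pericyte markers, 9.96 and 10.9 for 5 lymphocyte markers and 6.90 and 5.89 for 4 Schwann cell markers. Of 4 adipocyte markers only Lep was detected, and Adipoq, Plin1 and Cidec were not. The signals of H19 and Meg3 were lower on the array on which the fibroblast, macrophage and endothelial sums were lower, and that of Ndn was higher there. The part of these cells in the values of the imprinted genes was not tested.

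**Figure D5:**
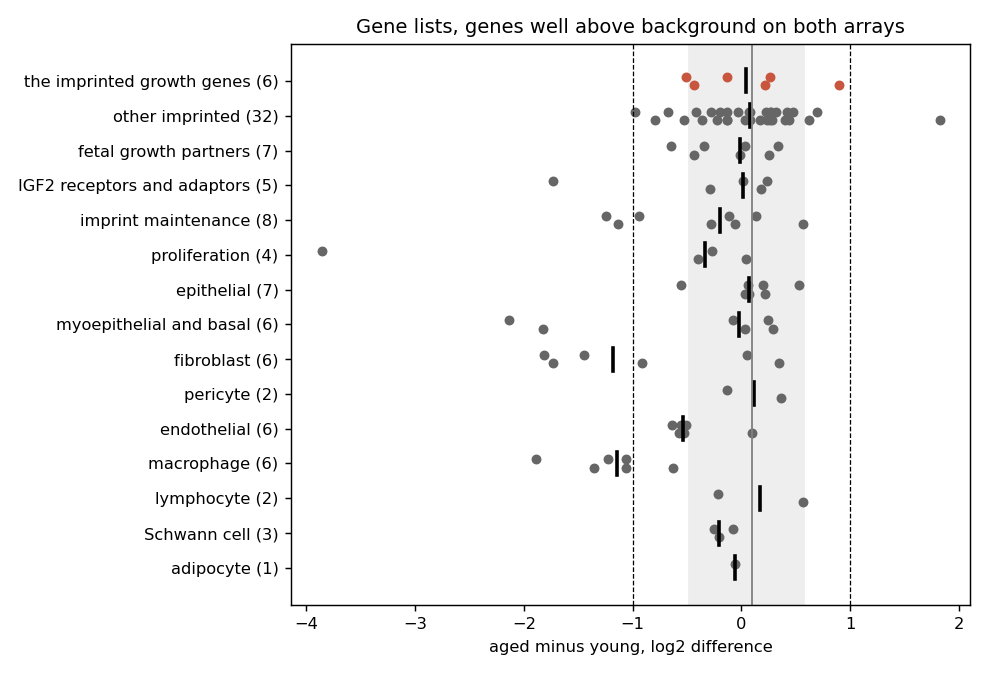
Log2 difference, aged minus young, of the genes of each list that were well above background on both arrays (points) with the median of the list (black bar), the number of genes being given in parentheses. The grey band holds the middle 80% of all 18745 genes, the grey line is their median of 0.09, and dashed lines mark 2-fold. The 6 imprinted growth genes spread over both sides of 0, from -0.51 to 0.90, and most fibroblast and macrophage markers lie to the left of the band.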

How the data were processed

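Cy3-labelled RNA of 1 young and 1 aged sample was hybridized to Agilent 8 x 60K mouse arrays. The deposited scanner files, made by the authors with Feature Extraction 12.0.3.1, give the intensity of each spot after background subtraction and detrending, its error, the raw intensity and a mark for well above background. A second deposited table holds these intensities divided by 1 constant per array. Log2 intensities were set relative to the 75th percentile of the array, taken over its 59305 non-control spots. Outlier spots on either array were dropped, repeated spots averaged, and the brightest probe well above background on at least 1 array stood for its gene. A 2-fold threshold was used, as in the methods. Where 1 array was dim, its value was replaced by the higher of its own signal and the lowest signal well above background there, which gives a limit. Of 56605 probes, 33767 took their gene name from RefSeq (GRCm38.p6), and the others kept the name in the files. Genes and lists were chosen with earlier results of these data known. Named were all 10 genes, and from the other lists those past 2-fold and defining markers. A few further genes of these lists were named after their values were seen. For 293 probes with repeated spots, the aged minus young difference had a median SD of 0.03 (log2) among the spots of 1 probe. For the 7 of these probes with a mean signal under 100, the median SD was 0.17 and the largest 0.31. R 4.3.3, limma 3.58.1 (quantile, loess and normexp) and Python 3.11.15 were used, and the steps were tested on simulated data. Of the Meg3 probes, 1 is counted in the totals but is otherwise not reported here.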

Additional observations from a re-analysis of the deposited data

How the results depend on the processing

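There were 13 alternatives, and the counts of genes past 2-fold held under nearly all of them. The number of these genes at least 2-fold higher with both arrays measured was 0, and became 1 (Ndn, 1.08 on the log2 scale) when the arrays were centred on the median. The number at least 2-fold lower by a limit was 1 (H19), and became 0 with the normexp correction, which was applied to raw intensities with an offset of 50. The number at least 2-fold lower with both arrays measured was 0 under each alternative. The numbers of genes detected (7) and measured on both arrays (6) rest on the mark of the scanner software. No scaling changes that mark, so these 2 numbers do not check the scaling. The number detected became 6 when a probe had to carry the mark on both arrays. Meg3, Plagl1 by its brightest probe, Grb10 and Ndn had 1 sign throughout, while Dlk1 and Cdkn1c changed sign under 1 alternative each. Averaging the probes of a gene moved Plagl1 to -0.11. The median of all genes (log2) shifted by 0.17 when the arrays were centred on it, by -0.26 with the spike-in controls, by -0.14 with loess and by -0.11 with the percentile over probes detected on both arrays. Over all genes measured on both arrays, 571 were at least 2-fold lower and 284 higher, against 209 and 107 with normexp, 417 and 464 centred on the median and 929 and 150 with the spike-in controls. No paired analysis was possible because each age had 1 array, and no replicate could be left out. Signal over background limits what can be said of Igf2, Peg3, Mest, Dlk1 and Grb10, and of H19 on the aged array.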

Other observations

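Genes whose brightest probe lay within 100 kb of a probe of these imprinted genes, or between their probes, were read after the values had been seen, by the positions in the files. Of 22 such neighbours that were detected, 18 were measured on both arrays, with a median difference of 0.11 on the log2 scale. The 1 past 2-fold was Lsp1, a leukocyte protein gene beside H19, whose brightest probe gave 2820 ± 282 at 9 weeks and 386 ± 38.7 at 24 months, a difference of -2.50. Its other 2 probes differed by -2.48 and -2.06. Also beside H19, Mrpl23, a mitochondrial ribosomal protein gene, differed by 0.73 and the noncoding Nctc1 by 0.21. Next to Cdkn1c, Slc22a18 differed by 0.69 and Kcnq1 by -0.68, and the antisense RNA of that domain, Kcnq1ot1, by -0.79.

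RefSeq promoters of 300 bases (GRCm38.p6) were found for 8 of the 10 genes, 15 promoters in all. Their median number of CG dinucleotides was 13, against 7 over the 32851 promoters in the table, and the ratio of observed to expected CG was 0.59 against 0.38. Among alternative promoters of 1 gene it ranged from 0.06 to 0.60 for Meg3 and from 0.10 to 0.90 for Igf2.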
